A study of Homo sapiens with 6 samples.

Results

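YAP1 and TEAD1, their partner WWTR1 and 7 genes known as their targets or partners were followed across 2 respiratory epithelial cell lines. The treatment was transforming growth factor-beta 1 (TGF-β1). The 10 genes were picked by symbol (CTGF, CYR61, ANKRD1, AMOTL1, AMOTL2, AXL, YAP1, WWTR1, TEAD1 and LATS2) out of 25737 entries counted in every library, and each symbol has exactly 1 entry. CTGF and CYR61 are the older names of CCN2 and CCN1. The RNA came from A549, a human lung carcinoma epithelial line, and from BEAS-2B, a human bronchial epithelial line, both of wild-type genotype per the labels. Each line gave 3 libraries, namely an untreated control and cells kept for 48 h with TGF-β1 at 1 or 5 ng/mL. Lines were grown in 10% fetal bovine serum, and the treated cells were moved to medium with 1% serum. The serum in the control medium is not given in the sources used here, so if it differed, serum and TGF-β1 cannot be told apart.

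The libraries were QuantSeq 3′ libraries from 500 ng of total RNA, in which a read marks the end of a transcript, so that levels of different genes can be compared without a correction for length. There was 1 library per condition, and no test between conditions and no p-value is given. Total counts ranged from 4120624 to 7841350. Levels are normalized counts, that is, counts scaled by TMM factors (trimmed mean of M-values) to the mean library. Ratios carry exact 95% Clopper-Pearson intervals, which reflect counting error only and say nothing of the spread between cultures. They take each read as an independent count. PCR copies of a molecule could not be recognised, so the intervals may be too narrow even for counting error. A gene was called upregulated or downregulated when its fold change (FC) was at least 2 and its normalized data (ND) value, log2 of the normalized count plus 1, reached 7 in either of the libraries compared. The scale behind the study's own ND value is not given in the sources used here. The limit of 7 equals a normalized count of 127 after the scaling above, or 101 to 185 raw counts depending on the library. In bulk RNA, fewer cells of a type and less RNA per cell cannot be told apart.

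Markers were checked against the labels. All 6 epithelial markers had counts in every A549 library, with a summed level of 4703 to 6010 CPM (reads scaled to a common library total), and the sum was 682 to 846 CPM in BEAS-2B, where EPCAM was at 0 in all 3 libraries and CDH1, which encodes E-cadherin, had at most 2 counts. In A549 at 5 ng/mL, 5 of the 6 epithelial markers were below the control and 1 was above. CDH1 and KRT8 were called down (640 to 8 and 6112 to 1792 counts). EPCAM was 31.3-fold lower (8.21 to 266) on 49 and 2 raw counts, without a call. KRT19 was 5.82-fold lower (2.79 to 13.6) on 41 and 9 raw counts, and KRT18 1.92-fold lower, also without a call. KRT7 was called up (3473 to 19283 counts). KRT7 was also called up in BEAS-2B at 5 ng/mL. There KRT8, KRT18 and KRT19 were 1.88-fold, 1.56-fold and 2.14-fold lower, without a call, and KRT19 (1.23 to 3.87) rested on 46 and 19 raw counts. Fibroblast markers summed to 7.48, 64.7 and 18.7 CPM in A549 at 0, 1 and 5 ng/mL and to 6.35, 14.8 and 29.8 CPM in BEAS-2B. Endothelial markers summed to at most 0.971 CPM, with CDH5, VWF and KDR at 0 in all 6 libraries and PECAM1 at 0 to 4 counts. Leukocyte markers summed to 0.971 to 12.5 CPM, with CD3E at 0 throughout and CD68 at 51, 73 and 52 counts in A549 and 24, 14 and 4 in BEAS-2B. The part of these markers in the results below was not tested.

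YAP1 and WWTR1 (also called TAZ) encode coactivators that do not bind DNA themselves and reach genes through the TEAD family of DNA-binding proteins. The Hippo kinases LATS1 and LATS2 phosphorylate YAP and TAZ, which are then held in the cytoplasm by 14-3-3 proteins or degraded, while spread or stretched cells on a stiff matrix keep them in the nucleus. CTGF, CYR61 and ANKRD1 are the usual readouts of their activity, and AMOTL2 and LATS2 are targets that act back as inhibitors. In lung epithelium the pathway is known for its roles in growth and repair, and in fibrosis its activity meets that of the SMAD proteins, which carry the TGF-β signal.

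The TEAD recognition letters GGAATG, or CATTCC where the motif lies on the opposite strand, were looked up in RefSeq promoters of GRCh38.p14, from 250 bases before to 50 bases after each annotated start, because most of the members are studied as TEAD targets. Of the 10 members, 8 were matched by symbol, with 11 starts, and CYR61 and TEAD1 were not. Stretches of 30 bases around the matches are shown on the strand of the gene, with the TEAD letters in capitals.
CTGF, distal, chr6:131951524-131951553 (minus): ttttcagacggaGGAATGctgagtgtcaag
CTGF, paired, chr6:131951455-131951484 (minus): ggtggggaGGAATGcgaGGAATGtccctgt
ANKRD1, distal, chr10:90921290-90921319 (minus): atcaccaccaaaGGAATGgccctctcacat
ANKRD1, proximal, chr10:90921198-90921227 (minus): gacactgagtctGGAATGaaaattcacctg
AMOTL2, second start, chr3:134374499-134374528 (minus): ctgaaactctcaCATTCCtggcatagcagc
AXL, second start, chr19:41226531-41226560 (plus): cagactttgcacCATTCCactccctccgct
YAP1, chr11:102110273-102110302 (plus): cgggagtgtgcaGGAATGtagcaacttgca
LATS2, chr13:21061560-21061589 (minus): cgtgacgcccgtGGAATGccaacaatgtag

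CTGF held 3 matches, at −169, −104 and −95 from its start, and ANKRD1 held 2, at −220 and −128. YAP1 (−162), LATS2 (10 bases after the start), the second start of AMOTL2 (−69) and the second start of AXL (−212) held 1 each, and the windows of AMOTL1 and WWTR1 held none. The AMOTL1 and WWTR1 windows lie inside the gene spans given below, whose outer starts were not searched. Across 35116 promoters of the same length, 14% had at least 1 match on either strand and 1.37% had at least 2. The arrangement GGAATGNNNGGAATG, which contains the shorter motif at both ends and was searched on both strands, occurred in 6 promoters (0.0171%), of which CTGF was 1. The SMAD letters CAGAC, searched also as GTCTG for the opposite strand, stood at −177 in CTGF, clear of the TEAD matches. In ANKRD1 they stood at −142 and at −132, the latter sharing its last base with the TEAD match at −128. Windows of AMOTL1, AMOTL2, AXL, WWTR1 and LATS2 held them as well, as did 45.3% of all promoters. A match is a run of letters and no measure of binding.

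In the treated libraries the members differed from their controls in both directions. At 5 ng/mL, CTGF was upregulated and CYR61 downregulated in both lines, ANKRD1 was upregulated in BEAS-2B, AMOTL2 was downregulated in A549 and AXL was downregulated in BEAS-2B. In A549 at 5 ng/mL, 8 of the 10 members reached the ND minimum, 1 was called up and 2 down, where 16.1% of the 7115 entries at the minimum were called up and 17.1% down. In A549 at 1 ng/mL, 7 reached the minimum and 1 was called in each direction, against 10.9% up and 12.6% down. In BEAS-2B all 10 reached the minimum, and 2 were called up and 2 down at 5 ng/mL, against 7.33% up and 11.6% down. At 1 ng/mL in BEAS-2B, 2 were called up and 3 down, against 5.66% up and 9.13% down. With log2(CPM + 1) as the ND value, chosen after seeing the data, 1 member was called up and 0 down in A549 and 1 up and 2 down in BEAS-2B at 5 ng/mL. The calls of CYR61 and AMOTL2 in A549 and of ANKRD1 in BEAS-2B were lost. Over all entries that value called 420 up and 308 down of 1937 in A549, and 158 and 199 of 1949 in BEAS-2B. With 10 members a single gene moves such a share by 10 percentage points, and nothing is read from these counts about the members as a set. The median log2 FC of the members at 5 ng/mL was −0.52 in A549 and −0.41 in BEAS-2B, beside 0.07 and 0.00 over the 9848 entries whose ND value averaged 5 or more. The medians at 1 ng/mL were −0.27 and −0.47. By counting interval alone, 4 members were above and 6 below the control in A549 at 5 ng/mL, and 3 were above, 6 below and 1 held a ratio of 1 in BEAS-2B. The same share over all entries was not computed, so nothing is read from this tally about the members.

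**Figure D1:**
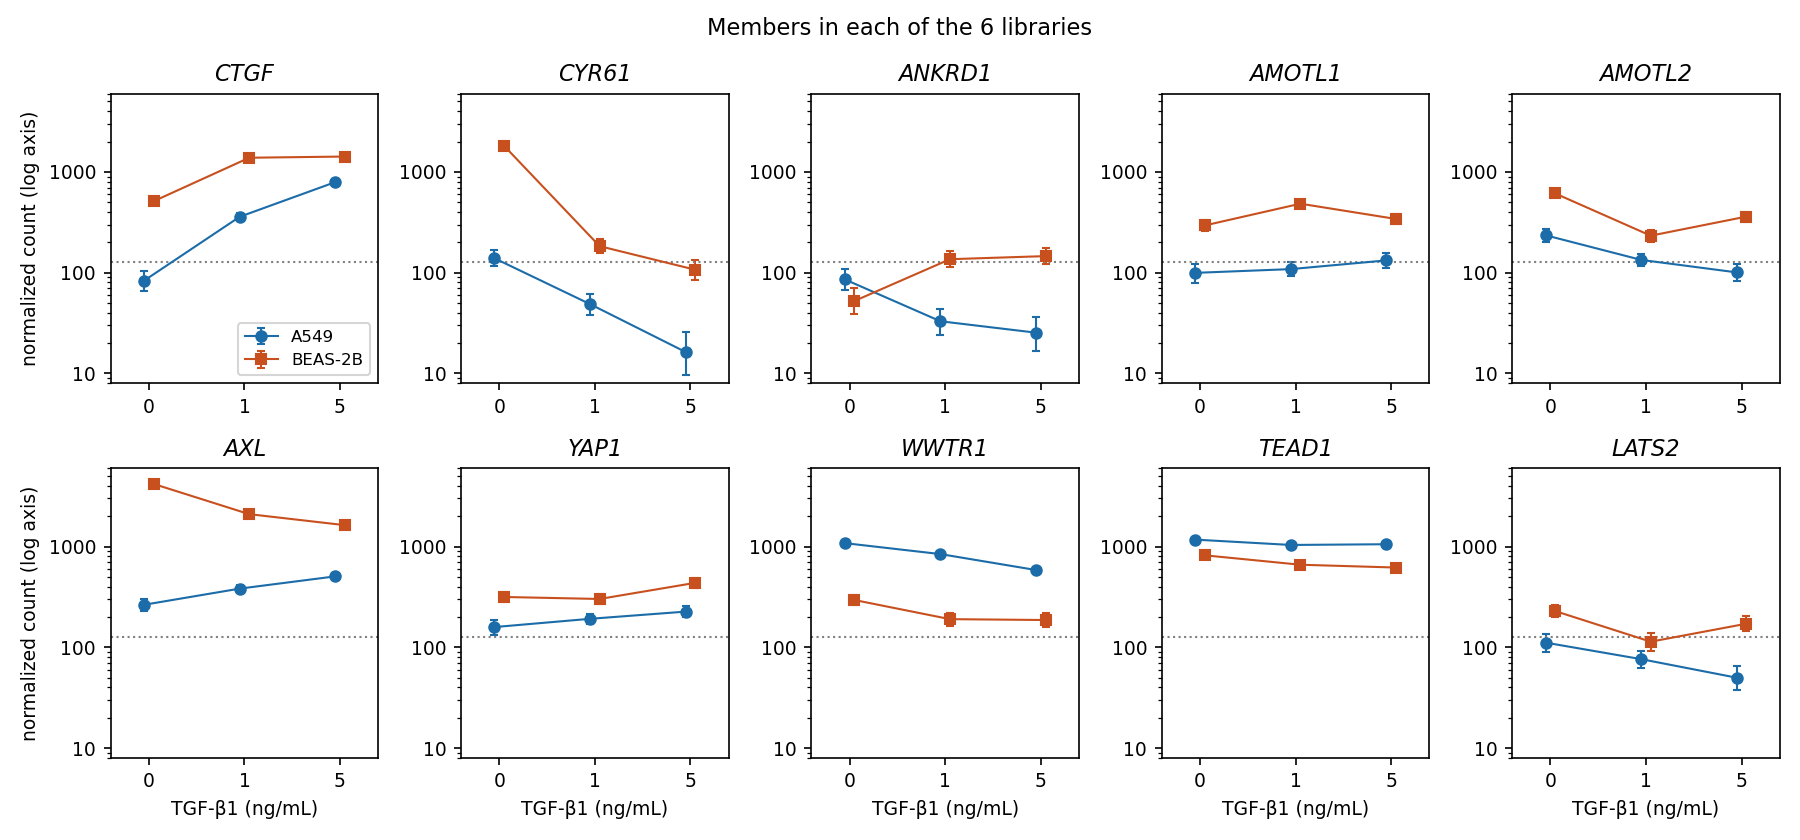
Normalized count (log axis) of each of the 10 members against TGF-β1 concentration (0, 1 and 5 ng/mL) in A549 and BEAS-2B, 1 library per point, with bars for the 95% counting interval and a line at the ND minimum (127). CTGF climbed and CYR61 dropped in both lines, while ANKRD1 and AXL went opposite ways between the lines.

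CTGF encodes a secreted matricellular protein that promotes matrix production, and it was the only member called up in both lines. It lies on the minus strand of chromosome 6 (131948176 to 131951373 in the GENCODE 29 annotation of GRCh38). In A549 its normalized count was 83.4 (65.3 to 105) in the control, 359 (329 to 391) at 1 ng/mL and 792 (740 to 846) at 5 ng/mL. In BEAS-2B it was 512 (466 to 561), 1383 (1307 to 1462) and 1421 (1339 to 1506). The level thus rose at each concentration in A549 and was flat between the treated libraries of BEAS-2B, whose intervals overlap. FC at 5 ng/mL was 9.49 in A549 (7.46 to 12.2) and 2.78 in BEAS-2B (2.49 to 3.10), and at 1 ng/mL it was 4.30 (3.36 to 5.58) and 2.70 (2.42 to 3.01). Control A549 started 6.14-fold below control BEAS-2B (4.78 to 7.98), so that A549 at 5 ng/mL stood between the control and the treated BEAS-2B libraries. Beside it, of 7 early SMAD target genes, 6 reached the ND minimum in each line at 5 ng/mL. In A549, 5 were called up and 0 down, against 16.1% up and 17.1% down over all entries. In BEAS-2B, 6 were called up and 0 down, against 7.33% and 11.6%. TGFBI, which encodes a secreted matrix protein induced by TGF-β, was at 7.64-fold (7.38 to 7.91) and 6.08-fold (5.89 to 6.29). BHLHE40 was 1.44-fold lower in A549 (1.09 to 1.89).

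CYR61, the closest relative of CTGF within the CCN family and likewise secreted into the matrix, went the other way in every treated library. The gene lies on the plus strand of chromosome 1 (85580761 to 85583962). In A549 its normalized count was 139 (115 to 166), 48.8 (38.1 to 61.5) and 16.3 (9.68 to 25.8) at 0, 1 and 5 ng/mL. In BEAS-2B it was 1817 (1730 to 1907), 183 (156 to 214) and 107 (85.5 to 132). The control was the highest library of each line and the intervals within a line do not overlap. CYR61 was 8.51-fold lower at 5 ng/mL in A549 (5.16 to 14.9) and 17.0-fold lower in BEAS-2B (13.6 to 21.4), and at 1 ng/mL it was 2.85-fold (2.11 to 3.88) and 9.91-fold lower (8.43 to 11.7). The A549 values rest on 120, 71 and 18 raw counts, and after thinning all libraries to the smallest total both A549 calls were lost to the ND minimum, with log2 FC still −3.13 at 5 ng/mL and −1.65 at 1 ng/mL. Across all 6 libraries the treated BEAS-2B levels bracketed that of control A549, with overlapping intervals on both sides.

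Since CTGF and CYR61 were counted in the same libraries, their ratio needs no scaling between libraries. There were 0.600 CTGF reads per CYR61 read in control A549 (0.442 to 0.810), 7.35 at 1 ng/mL (5.73 to 9.56) and 48.5 at 5 ng/mL (30.5 to 82.2). In BEAS-2B the ratio was 0.282 (0.253 to 0.313), 7.54 (6.40 to 8.93) and 13.3 (10.6 to 16.7). CYR61 was therefore the more abundant of the pair in both controls and CTGF in all 4 treated libraries, and the intervals of the lines overlapped at 1 ng/mL only.

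**Figure D2:**
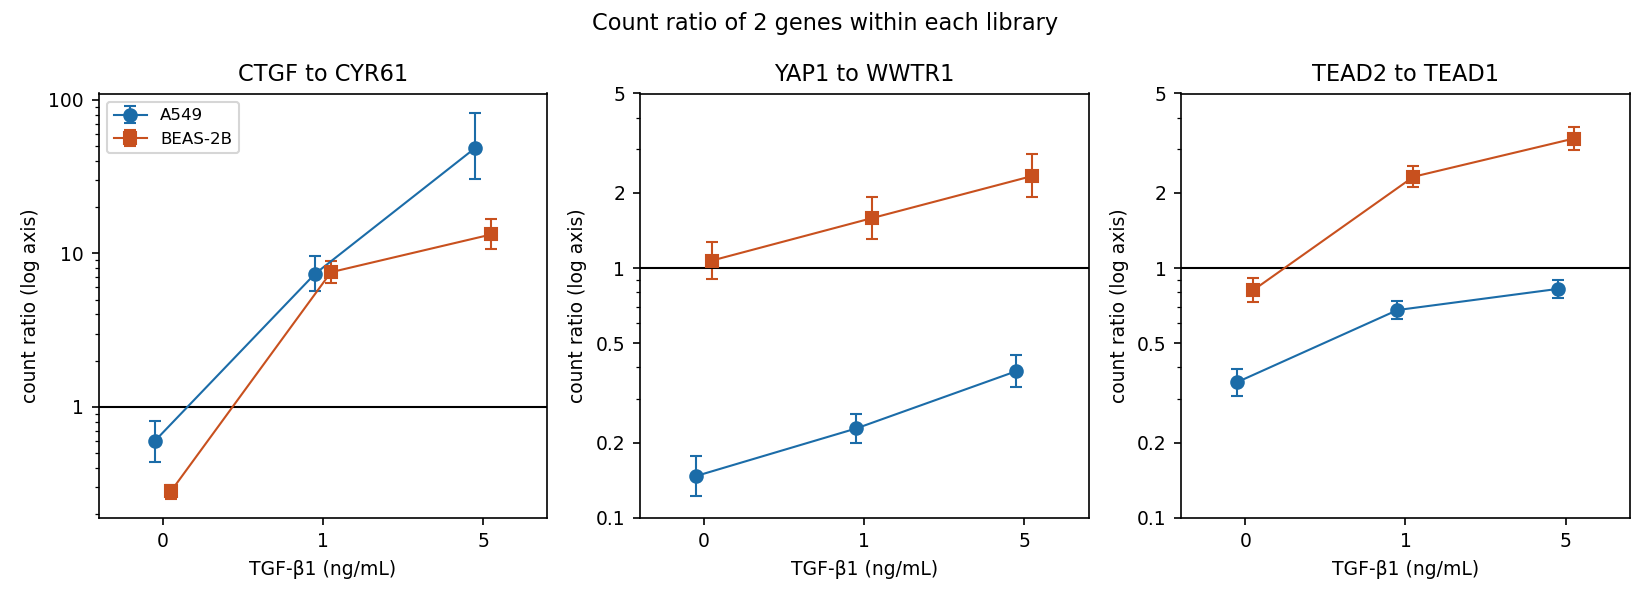
Ratio of raw counts of 2 genes within 1 library (log axis) against TGF-β1 concentration in ng/mL for CTGF to CYR61, YAP1 to WWTR1 and TEAD2 to TEAD1, with 95% counting intervals. All 3 ratios were higher at each higher concentration in both lines, and CTGF to CYR61 crossed 1 between the control and 1 ng/mL.

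ANKRD1 encodes a nuclear ankyrin repeat protein induced by stretch in muscle, and its directions differed between the lines. It lies on the minus strand of chromosome 10 (90912096 to 90921276). The normalized count was 85.7, 33.0 and 25.4 in A549 at 0, 1 and 5 ng/mL and 52.4, 136 and 146 in BEAS-2B. Both treated A549 libraries lay below their control and both treated BEAS-2B libraries above theirs. ANKRD1 was upregulated in BEAS-2B with an FC of 2.79 (1.97 to 3.9996) at 5 ng/mL and 2.60 (1.84 to 3.72) at 1 ng/mL. It was 3.37-fold lower in A549 at 5 ng/mL (2.16 to 5.42) and 2.60-fold lower at 1 ng/mL (1.78 to 3.82), which was not called because every A549 library was below the ND minimum. Raw counts were 28 to 121, and after thinning both BEAS-2B calls were lost to the ND minimum, with log2 FC still 1.49 at 5 ng/mL and 1.42 at 1 ng/mL.

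AXL encodes a receptor tyrosine kinase bound by GAS6 and lies on the plus strand of chromosome 19 (41219203 to 41261766). Its normalized count was 264, 382 and 505 in A549 and 4175, 2094 and 1629 in BEAS-2B at 0, 1 and 5 ng/mL. The 3 libraries of each line were ordered by dose, upwards in A549 and downwards in BEAS-2B, with no overlap of intervals. In BEAS-2B it was downregulated 2.56-fold at 5 ng/mL (2.41 to 2.73) and was 1.99-fold lower at 1 ng/mL (1.89 to 2.11), just under the FC limit. In A549 it was 1.91-fold higher at 5 ng/mL (1.64 to 2.24) and 1.45-fold higher at 1 ng/mL (1.24 to 1.69), under the limit in both. The lines drew closer with dose, yet AXL in A549 at 5 ng/mL was still lower than in any BEAS-2B library. The difference in direction between the lines was not tested for ANKRD1 or AXL.

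AMOTL1 and AMOTL2 encode angiomotin-like proteins that bind YAP and TAZ at cell junctions, and they did not move together. AMOTL2 (minus strand of chromosome 3, 134355874 to 134375479) had a normalized count of 235, 134 and 101 in A549 and 611, 233 and 360 in BEAS-2B at 0, 1 and 5 ng/mL. Every treated library was below its control. It was downregulated in A549 at 5 ng/mL, 2.34-fold (1.84 to 2.97), and in BEAS-2B at 1 ng/mL, 2.62-fold (2.23 to 3.09). The other 2 comparisons, 1.76-fold lower in A549 at 1 ng/mL (1.44 to 2.15) and 1.70-fold lower in BEAS-2B at 5 ng/mL (1.47 to 1.96), stayed under the limit. AMOTL1 (plus strand of chromosome 11, 94706431 to 94876753) had a normalized count of 99.6, 109 and 132 in A549 and 294, 484 and 341 in BEAS-2B. It was called in neither line, and its 1.64-fold higher level in BEAS-2B at 1 ng/mL (1.41 to 1.92) was the largest of its differences from a control. At 5 ng/mL it was 1.33-fold higher in A549 (1.01 to 1.76) and 1.16-fold higher in BEAS-2B, with an interval that held 1 (0.975 to 1.38). The small difference of AMOTL1 in A549 at 1 ng/mL, 1.09-fold higher (0.833 to 1.43), fell on the other side of 1 when libraries were scaled by total counts. Within a library the AMOTL1 to AMOTL2 count ratio went from 0.424 to 0.810 and 1.32 with dose in A549, and from 0.482 to 2.08 and 0.948 in BEAS-2B.

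LATS2 encodes the kinase that phosphorylates YAP and TAZ and lies on the minus strand of chromosome 13 (20973032 to 21061547). The normalized count was 111, 76.3 and 49.9 in A549 and 229, 114 and 171 in BEAS-2B. All treated libraries were below their controls, and in BEAS-2B the lowest was that at 1 ng/mL, as for AMOTL2. LATS2 was called down in BEAS-2B at 1 ng/mL at 2.01-fold (1.58 to 2.58), a value so close to the limit that the call was lost with DESeq2 or upper quartile scaling, with a pseudocount of 5, after thinning, after a 10-count filter and after removing the trend over GC content. It was 1.33-fold lower in BEAS-2B at 5 ng/mL (1.07 to 1.67). In A549 at 5 ng/mL it was 2.23-fold lower (1.58 to 3.16) but below the ND minimum in both libraries.

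The coactivator genes were called in neither line, and at 5 ng/mL they lay on opposite sides of the control. YAP1 (plus strand of chromosome 11, 102110461 to 102233423) had a normalized count of 159, 192 and 226 in A549 and 316, 302 and 436 in BEAS-2B at 0, 1 and 5 ng/mL. It was 1.42-fold higher at 5 ng/mL in A549 (1.15 to 1.77) and 1.38-fold higher in BEAS-2B (1.18 to 1.62), and at 1 ng/mL the intervals held 1 in both lines. WWTR1 (minus strand of chromosome 3, 149517235 to 149736714) had a normalized count of 1080, 841 and 584 in A549 and 294, 190 and 186 in BEAS-2B. It was 1.85-fold lower at 5 ng/mL in A549 (1.67 to 2.05) and 1.58-fold lower in BEAS-2B (1.29 to 1.95), below the control in all 4 treated libraries and under the FC limit in each. With total counts the A549 value became a log2 FC of −1.09, past the limit. WWTR1 at 1 ng/mL was 1.28-fold lower in A549 (1.18 to 1.40) and 1.55-fold lower in BEAS-2B (1.27 to 1.89). The YAP1 to WWTR1 count ratio within a library went from 0.147 to 0.228 and 0.387 in A549 and from 1.07 to 1.59 and 2.34 in BEAS-2B. WWTR1 had more reads than YAP1 in every A549 library and fewer in every BEAS-2B library. In control BEAS-2B, however, the interval of the ratio held 1 (0.903 to 1.27).

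TEAD1 encodes one of the DNA-binding partners (plus strand of chromosome 11, 12674591 to 12944483) and stayed within 1.32-fold of its control in every treated library. Its normalized count was 1170, 1036 and 1053 in A549 and 818, 659 and 618 in BEAS-2B at 0, 1 and 5 ng/mL. It was 1.11-fold lower at 5 ng/mL in A549 (1.02 to 1.21) and 1.32-fold lower in BEAS-2B (1.18 to 1.49), and at 1 ng/mL it was 1.13-fold (1.04 to 1.22) and 1.24-fold lower (1.11 to 1.38). The A549 difference disappeared when the trend over GC content was removed (log2 FC of 0.01). TEAD2, another TEAD family gene and not a member, was upregulated 2.13-fold in A549 (1.88 to 2.41) and 3.06-fold in BEAS-2B (2.78 to 3.37) at 5 ng/mL. There were 0.350, 0.679 and 0.825 TEAD2 reads per TEAD1 read in A549 and 0.816, 2.32 and 3.30 in BEAS-2B, so that TEAD2 overtook TEAD1 in both treated BEAS-2B libraries but in no A549 library.

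**Figure D3:**
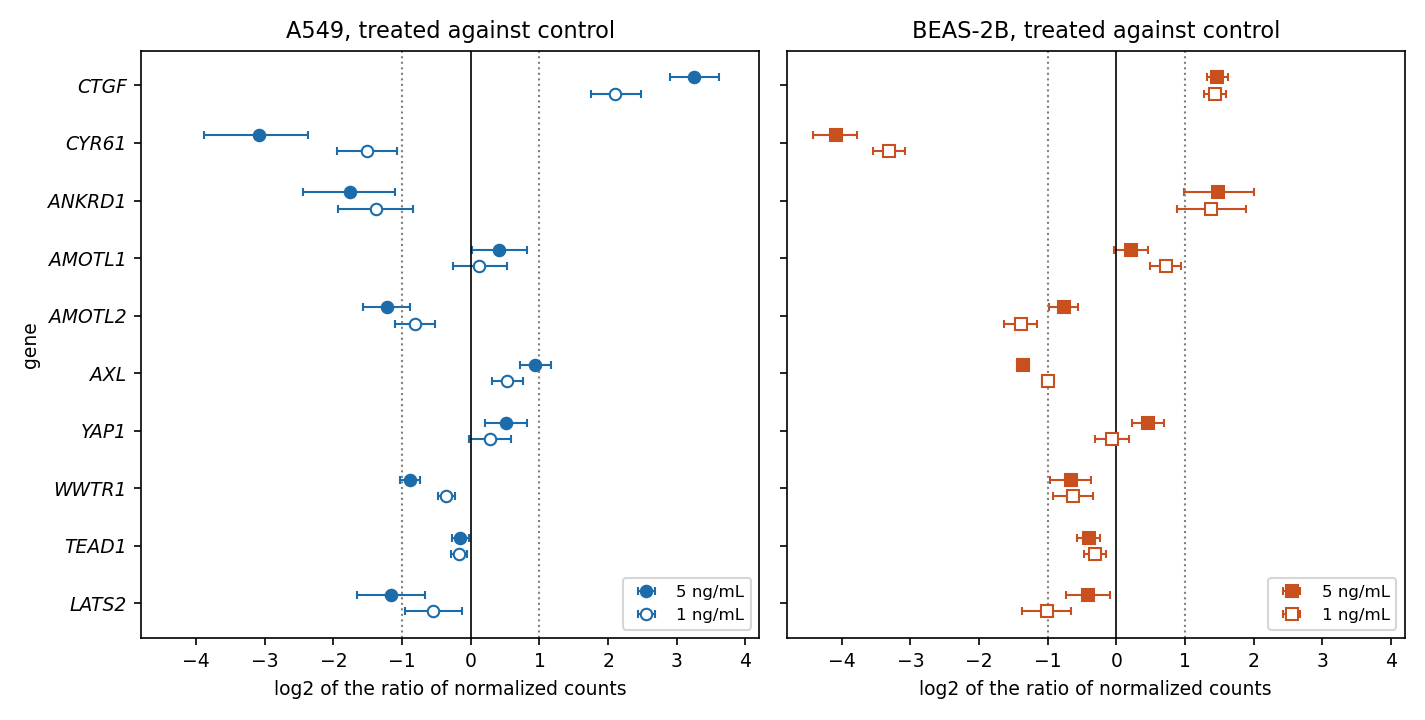
Log2 ratio of normalized counts (x axis) of each member at 1 and 5 ng/mL against the control of its own line, with 95% counting intervals and dotted lines at a ratio of 2 in either direction. CTGF is right of the upper line and CYR61 left of the lower line in all 4 comparisons, and YAP1, WWTR1, TEAD1 and AMOTL1 lie between the lines.

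Going from 1 to 5 ng/mL, CTGF in A549 was the only call among the members, with an FC of 2.21 (1.98 to 2.47), where 1.61% of entries were called up and 1.79% down. CYR61 was 2.99-fold lower at 5 than at 1 ng/mL in A549 (1.76 to 5.33), below the ND minimum. In BEAS-2B no member was called, against 0.492% up and 0.412% down. AMOTL1 was 0.705 of its 1 ng/mL level (0.604 to 0.823) while AMOTL2 was 1.55-fold (1.29 to 1.86), LATS2 1.51-fold (1.16 to 1.97) and YAP1 1.45-fold higher (1.23 to 1.70). These are changes between 2 single libraries of a line.

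Before any TGF-β1 the members were already far apart between the lines. In the controls, 6 of the 9 members that reached the minimum were called lower in A549 and 1 higher, where 18.9% of entries were called lower and 18.1% higher. AXL was 15.8-fold (13.8 to 18.1), CYR61 13.1-fold (10.9 to 15.9), CTGF 6.14-fold, AMOTL1 2.96-fold (2.31 to 3.81), AMOTL2 2.60-fold (2.21 to 3.07) and LATS2 2.06-fold (1.61 to 2.65) lower in A549. The LATS2 call was lost with DESeq2 or upper quartile scaling. YAP1 was 1.99-fold lower in A549 (1.62 to 2.46), just under the limit. The exception was WWTR1, 3.67-fold higher in A549 (3.20 to 4.22). TEAD1 was 1.43-fold higher (1.30 to 1.58) and ANKRD1 1.64-fold higher (1.12 to 2.41) in A549, neither called. The median log2 FC of A549 against BEAS-2B was −1.20 over the members and −0.05 over the 9848 entries. The 2 lines differ in origin and donor, and no cause of these differences was tested.

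A list of 22 YAP and TAZ target genes, 6 of them members, was called in both directions too. At 5 ng/mL in A549, 16 reached the ND minimum, of which 5 were upregulated and 5 downregulated, where 16.1% and 17.1% of all entries were. The upregulated genes were CCDC80, 24.5-fold (23.4 to 25.7), CTGF, ARHGEF17, 4.43-fold, PTPN14, 3.76-fold (3.26 to 4.36), and NUAK2, 2.76-fold. The downregulated genes were IGFBP3, which encodes an insulin-like growth factor binding protein, 19.4-fold (16.0 to 23.8), CYR61, CRIM1, 3.17-fold, MYOF, 3.06-fold, and AMOTL2. In BEAS-2B at 5 ng/mL, 19 reached the minimum, where 7.33% of all entries were called up and 11.6% down. CTGF and ANKRD1 were upregulated and 5 were downregulated, namely CYR61, F3, which encodes tissue factor, 5.80-fold (4.26 to 8.07), MYOF, 4.14-fold, AXL and DOCK5. Called in the same direction in both lines were CTGF, CYR61 and MYOF. The genes with the largest FC in A549 went the other way in BEAS-2B, under the FC limit. There CCDC80 was 1.64-fold lower (1.58 to 1.69) and IGFBP3 1.51-fold higher (1.24 to 1.84), each on the same side of the control at 1 ng/mL. The median log2 FC over the 21 list genes above the same average was −0.22 in A549 and −0.41 in BEAS-2B. At 1 ng/mL, 16 reached the minimum in A549, and 5 were called up and 5 down, against 10.9% and 12.6% of all entries. In BEAS-2B, 19 reached it, and 2 were called up and 6 down, against 5.66% and 9.13%.

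**Figure D4:**
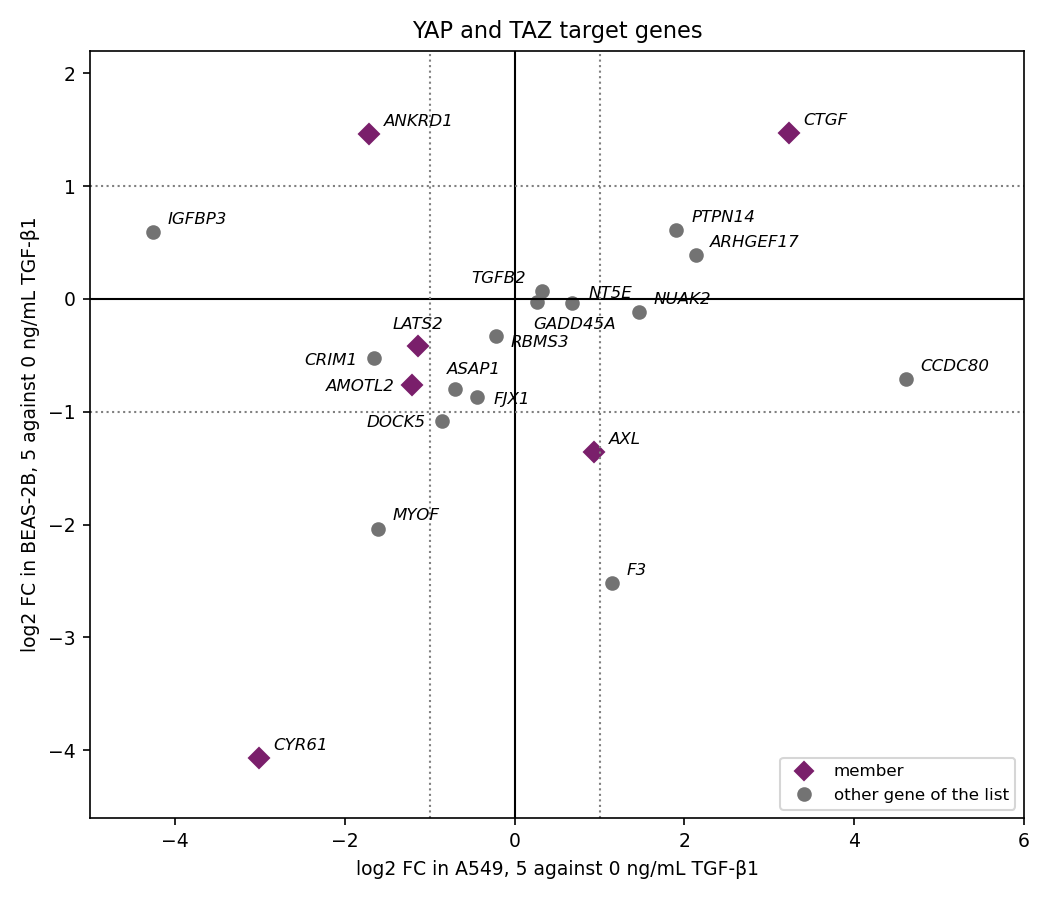
Log2 FC at 5 ng/mL in A549 (x axis) and BEAS-2B (y axis) for the YAP and TAZ target list, with members as diamonds and dotted lines at an FC of 2 in either direction. FOXF2 is left out because it had 0 counts in all BEAS-2B libraries. CTGF sits at the upper right and CYR61 and MYOF at the lower left. ANKRD1 and IGFBP3 are among the genes at the upper left, and AXL and CCDC80 among those at the lower right.

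Of the 18 Hippo kinases and upstream genes, 12 reached the ND minimum in A549 and 13 in BEAS-2B at 5 ng/mL. Of these, 2 were called up and 2 down in A549, against 16.1% and 17.1% of all entries, and 1 in each direction in BEAS-2B, against 7.33% and 11.6%. FRMD6, a FERM domain gene of the pathway, was upregulated 9.22-fold in A549 (5.70 to 15.9) and 2.78-fold in BEAS-2B (2.38 to 3.25) at 5 ng/mL, and PTPN14, a phosphatase that binds YAP, was upregulated in A549. AJUBA and LIMD1, LIM domain genes whose proteins bind LATS kinases, were downregulated 6.70-fold (4.76 to 9.65) and 4.14-fold in A549, and WWC1 (KIBRA) was downregulated 2.79-fold in BEAS-2B (2.50 to 3.10). LATS1, the kinase gene most like LATS2, was below the minimum in both lines and was 1.84-fold lower in A549 (1.18 to 2.90) and 1.99-fold lower in BEAS-2B (1.39 to 2.89). The medians of the list were 0.07 in A549 and −0.20 in BEAS-2B on the log2 scale. At 1 ng/mL, 12 reached the minimum in A549 and 13 in BEAS-2B, and 1 was called up and 2 down in each line. The shares of all entries at 1 ng/mL were 10.9% up and 12.6% down in A549 and 5.66% and 9.13% in BEAS-2B. Of the 13 TEAD, YAP and TAZ genes and their partners, 9 reached the minimum in each line, and 2 were upregulated in A549 at 5 ng/mL, TEAD2 and VGLL3, and 1 was downregulated, AMOTL2. VGLL3, a vestigial-like cofactor of TEAD, was 6.41-fold higher in A549 (4.73 to 8.88) and 1.71-fold lower in BEAS-2B. In BEAS-2B at 5 ng/mL TEAD2 was the only one called. At 1 ng/mL, 8 reached the minimum in A549 and 9 in BEAS-2B. VGLL3 was called up in A549, and TEAD2 up and AMOTL2 down in BEAS-2B, beside the same shares of all entries at 1 ng/mL.

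Across all 6 libraries, the entries whose ND profile lay nearest to that of CTGF, by Euclidean distance after subtracting each entry's mean ND value, among 8159 entries that reached the ND minimum in any library, were PHLDB1 (0.389), ITGA5 (0.399), NDST1 (0.464), NAV2 (0.594) and ARID5A (0.700). ITGA5 encodes the fibronectin receptor subunit integrin α5, with counts of 70, 394 and 740 in A549 and 322, 1119 and 864 in BEAS-2B. The nearest to CYR61 were AOX1 (0.704), IFITM1 (1.57), PXDC1 (1.62), C1R (1.68) and TBC1D2 (1.73), and AOX1 had at most 9 counts in 5 of the libraries. These are likenesses over 6 points and carry no test. The ND values were not scaled, and they ran from 4.12 to 10.8 for CYR61 and from 6.40 to 10.5 for CTGF. Distances are therefore not compared between the genes.

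In A549 the FC of all entries followed the GC content of their transcripts. In 20 bins of GC content, the median log2 FC at 5 ng/mL was −0.22 in the lowest bin and 0.81 in the highest, and in BEAS-2B it was −0.01 and 0.20. The members run from 40.9% GC (WWTR1) to 56.7% (AMOTL2). With this trend removed, the log2 FC in A549 at 5 ng/mL was 3.17 for CTGF, −3.01 for CYR61, −1.51 for AMOTL2 and −0.65 for WWTR1, so that the called members kept their calls. In GENCODE 29, the last exon of AMOTL2 shares 688 bases with the processed pseudogene RPL39P5 on the same strand, and those of AMOTL1 and YAP1 share 2702 and 1072 bases with the antisense genes AP002383.2 and AP000942.2. Reads in the bases shared by AMOTL2 and RPL39P5 cannot be told apart by strand. Whether counting used the strand is not given in the sources used here. Reads of AMOTL1, YAP1 and their antisense partners may therefore not be told apart.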

How the data were processed

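The values deposited by the authors are raw read counts per gene entry, as whole numbers without normalization, 1 file for each of 6 QuantSeq 3′ libraries. The submitters' processing notes name Bowtie2, bedtools and the build hg19, and the counting settings are not given in the sources used here. Counts were scaled with TMM factors over the 6 libraries (edgeR 4.0.16, R 4.3.3). Later steps used Python 3.11.15, numpy 2.4.6, pandas 2.3.3 and scipy 1.17.1. Calls and log2 FC were computed after adding 1 to each normalized count. Fold values, with or without a quoted interval, are of counts without it. Samples were grouped by the labels. The FC limit of 2 and the ND limit of 7 are the numbers used by the study. They were applied to TMM-scaled counts because the scale of its ND value is not given in the sources used here. A call here is therefore not known to be a call by the study's own limits. At 5 ng/mL the limits here called 1146 entries up and 1220 down in A549, and 494 and 783 in BEAS-2B. With log2(CPM + 1) as the ND value these were 420 and 308, and 158 and 199, much nearer the numbers of genes the paper reports. By that value the calls of CYR61 and AMOTL2 in A549 and of ANKRD1 in BEAS-2B were lost. A count of 0 allows up to 3 counts, or 0.383 to 0.728 CPM by library.

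The members and the gene lists were chosen with earlier results of these data known. Genes named beyond the members are those called in a list, family members set beside them, and the 5 nearest entries of CTGF and CYR61. LATS1 was chosen after its values were seen. Lists covered the Hippo kinases, YAP, TAZ and TEAD partners, target genes, CCN family, TAM receptors, 14-3-3 family, early SMAD targets and cell type markers. Positions come from GENCODE 29 on GRCh38 and describe the genes, not the counted hg19 intervals. The steps were tested on simulated data. In all, 13 alternative settings set out at the start were run (DESeq2 1.42.0 size factors among them), and 2 more were chosen after seeing the data. The miRNA data of the study were not analysed here, and values of some list genes are not reported here.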

Additional observations from a re-analysis of the deposited data

Results flagged for a closer look

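ANKRD1 moved in opposite directions in the lines, with a log2 FC of −1.72 in A549 and 1.46 in BEAS-2B at 5 ng/mL. It stood out because both treated A549 libraries were below their control and both treated BEAS-2B libraries above theirs. AXL did the reverse, with a log2 FC of 0.93 in A549 and −1.36 in BEAS-2B. Each rests on 3 libraries per line, and neither difference between the lines was tested.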

How the results depend on the processing

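Of the 22 calls among the 70 member comparisons, all kept their sign under the other scalings, filter, pseudocounts, thinning, summing per symbol and GC removal, and 201 of 213 such values kept the call. The 12 lost were of LATS2, CYR61 in A549 and ANKRD1 in BEAS-2B. No called value was reversed. The number of members called (3 in A549 and 4 in BEAS-2B at 5 ng/mL, 2 and 5 at 1 ng/mL, 1 and 0 between 1 and 5 ng/mL, and 7 between the controls) moved by over 1.5 times in these cases. After thinning to the smallest library it was 1 in A549 and 3 in BEAS-2B at 1 ng/mL. Entries called were then 642 up and 787 down of 6168 in A549, and 354 and 502 of 5964 in BEAS-2B. With the ND minimum asked of both libraries the number of members was 0 in A549 at either concentration, 2 in BEAS-2B at 5 ng/mL, 3 at 1 ng/mL and 4 between the controls. Entries called were then 651 up and 448 down of 5093 in A549 at 5 ng/mL, and 389 and 358 of 5317 at 1 ng/mL. In BEAS-2B they were 246 and 329 of 5312 at 5 ng/mL, and 185 and 263 of 5394 at 1 ng/mL. Between the controls they were 479 and 656 of 5023. With no minimum the number of members was 5 in A549 at 5 ng/mL and 2 between 1 and 5 ng/mL. Entries called were then 3046 up and 4403 down of 25737, and 1209 and 2086. With an FC limit of 1.5 the number of members was 5 in A549 at 5 ng/mL, 8 in BEAS-2B at 1 ng/mL and 3 in BEAS-2B between 1 and 5 ng/mL. Entries called in these comparisons were 2126 up and 1865 down of 7115, 1014 and 1296 of 6681, and 263 and 306 of 6306. With a limit of 3 the number of members was 1 in A549 at 1 ng/mL, 1 in BEAS-2B at each concentration, 0 in A549 between 1 and 5 ng/mL and 4 between the controls. Entries called were then 254 up and 420 down of 7007 in A549 at 1 ng/mL. In BEAS-2B they were 190 and 307 of 6735 at 5 ng/mL, and 153 and 215 of 6681 at 1 ng/mL. Between 1 and 5 ng/mL in A549 they were 15 and 21 of 6467, and between the controls 731 and 658 of 7329. With log2(CPM + 1) as the ND value, chosen after seeing the data, the number of members was 1 and 0 in A549 at 5 and 1 ng/mL, 3 in BEAS-2B at 1 ng/mL and 4 between the controls. Entries called at 1 ng/mL were then 228 up and 213 down of 1831 in A549, and 124 and 148 of 1899 in BEAS-2B. Between the controls they were 374 and 455 of 2133. Over all entries at 5 ng/mL that ND value gave 420 calls up and 308 down in A549, against 1146 and 1220, and 158 up and 199 down in BEAS-2B, against 494 and 783. The FC and ND limits set these counts by construction. Calls of CYR61 and ANKRD1 lost on thinning were still past the FC limit and missed the ND minimum. Scaling within a line gives no value between the controls.

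Scaling by total counts moved the median log2 FC of all entries from 0.07 to −0.13 in A549 and from 0.00 to −0.13 in BEAS-2B at 5 ng/mL, and the share of calls that were upward from 48.4% to 33.8% and from 38.7% to 26.9%. At 1 ng/mL that share went from 46.5% to 32.2% (33.5% with the GC trend removed) and from 38.3% to 27.3%. No paired analysis was possible because each condition has 1 library.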

Other observations

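The CCN family, TAM receptors and 14-3-3 genes gave further values. The shares of all entries called at 5 ng/mL were 16.1% up and 17.1% down in A549 and 7.33% and 11.6% in BEAS-2B. At 1 ng/mL they were 10.9% and 12.6% in A549 and 5.66% and 9.13% in BEAS-2B. In the CCN family of 6 genes, CTGF and CYR61 were called in both lines and no other gene reached the ND minimum at 5 ng/mL. WISP2 (CCN5) was below the ND minimum, 14.6-fold lower in BEAS-2B at 5 ng/mL (6.48 to 40.8) on 99 and 6 raw counts, and 4.93-fold lower in A549. Among the 5 TAM receptor and ligand genes, the ligand gene GAS6 was downregulated 2.43-fold together with AXL in BEAS-2B at 5 ng/mL. PROS1, which encodes protein S, another TAM ligand, was downregulated 6.69-fold in A549. Of the 7 genes for 14-3-3 proteins, which hold phosphorylated YAP in the cytoplasm, SFN was called up in A549 at 5 ng/mL, 4.27-fold, and no other call was made in either line at 1 or 5 ng/mL against the control. TEAD3 was below the ND minimum and 5.84-fold lower in A549 at 5 ng/mL (2.53 to 15.7) on 32 and 7 raw counts. In BEAS-2B it was 2.74-fold lower (1.65 to 4.72) on 65 and 21. TEAD4 was 1.82-fold higher in A549 and 1.96-fold lower in BEAS-2B, so the TEAD genes did not share a direction.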
